A study of Musca domestica with 16 samples.

Results

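The single-copy genes of chromosome III of the house fly, Musca domestica, were described across strains, sexes and tissues. A member is a gene that the authors' deposited table lists as a single-copy ortholog (1 gene in the house fly for 1 in the fruit fly, Drosophila melanogaster) and whose scaffold that table puts on chromosome III. There were 1119 such genes among 14631 genes in all, on 315 scaffolds. They are set beside 4238 single-copy genes placed in the same way on chromosomes I, II and IV, called the reference genes here.

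The libraries come from strains CS and CSaY. In CS the male determiner lies on chromosome III, and its males are called IIIM males here. In CSaY the determiner lies on the Y chromosome, and its males are called YM males. RNA came from unmated adults aged 4 to 6 days and reared at 25 °C. Testes of IIIM and YM males and heads of IIIM and YM males had 3 libraries a group, while CS and CSaY female heads and CS and CSaY ovaries had 1 library each. The labels do not say whether the 3 libraries of a group came from separate flies. The table holds 1 FPKM value per group (fragments per kilobase of transcript, scaled to the mapped total), so the spread between male libraries and the read depth are unknown, and FPKM values of different genes can be compared because they are per length. A gene is called here when the q value in the authors' deposited table, their adjusted p for a comparison, lies below 0.05.

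House fly sex is set by a dominant male determiner, found on different chromosomes in different flies, and a chromosome that carries it is passed from fathers to sons as a young Y chromosome is. Genes linked to the determiner can come to differ in sequence and expression from their copies on the ordinary homologue, and the 2 strains differ in whether males carry such a copy of chromosome III. Chromosome III corresponds to the chromosome arm that is the X in the fruit fly, known as element A. The deposited table gives 975 of the 1119 members a fly ortholog on that arm, and 138 an ortholog on another one. As a check of tissue, bcd, a transcript that the mother lays into the egg, stood at 217 FPKM in ovary and 1.08 FPKM in testis. No sequence of the members was used here. A symbol was matched for 3 members, and the others are given by their gene ID with the FlyBase ID of the fly ortholog at first mention.

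The members were transcribed in all 4 tissues at levels somewhat below those of the reference genes. Their median level was 14.2 FPKM in IIIM and 14.3 FPKM in YM testes, beside 16.7 and 16.4 FPKM for the reference genes. In male heads it was 9.50 FPKM in IIIM and 10.3 FPKM in YM males, beside 12.7 and 12.6 FPKM. In ovaries the medians were 23.1 FPKM in CS and 23.4 FPKM in CSaY, beside 24.4 and 24.1 FPKM. In female heads they were 8.53 and 8.30 FPKM, beside 9.84 and 10.0 FPKM. The highest level lay in ovary for 449 members (40.1%), in testis for 290 (25.9%), in male heads for 208 (18.6%) and in female heads for 80 (7.15%), while 92 members (8.22%) stayed under 1 FPKM in all 4 tissues. Among the reference genes the shares were 39.3%, 27.4%, 20.0%, 6.37% and 6.98%. The members therefore spread over the tissues much as the single-copy genes of the other chromosomes did.

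In testes 216 of the 951 tested members differed between YM and IIIM males (22.7%), beside 13.0% of all 10275 tested genes and 7.61% of the tested reference genes (279 of 3667). The other 168 members were not tested by the authors. Of the 216 called members 142 were higher in YM testes (14.9% of those tested, beside 7.61% of all tested genes) and 74 were lower (7.78%, beside 5.41%). Among the reference genes 150 were higher and 129 lower. Taken by chromosome, 8.47% of the reference genes were called on chromosome I, 7.41% on II and 7.11% on IV. In bulk tissue a lower number of cells of a type and less RNA per cell cannot be told apart.

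Most of these differences were small. The median fold of the called members was 1.68 for those higher in YM testes and 1.80 for those lower, and 77.8% of the called members differed by less than 2-fold in FPKM + 1. Above that size 23 members were higher and 25 lower, together 5.05% of the tested members, beside 3.85% of all tested genes and 1.28% of the reference genes. Above 1 FPKM the share called was higher than that of the reference genes in each range of levels: it was 20.4% for members with a mean of 1 to 10 FPKM, 22.8% from 10 to 100 FPKM and 26.6% over 100 FPKM, beside 8.16%, 6.67% and 8.72% of the reference genes in the same ranges. Up to 1 FPKM few genes were tested, and 3 of 6 members and 6 of 10 reference genes were called. Over all tested members, called or not, the median log2 change of FPKM + 1 was 0.078, and over the reference genes it was -0.010.

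**Figure D1:**
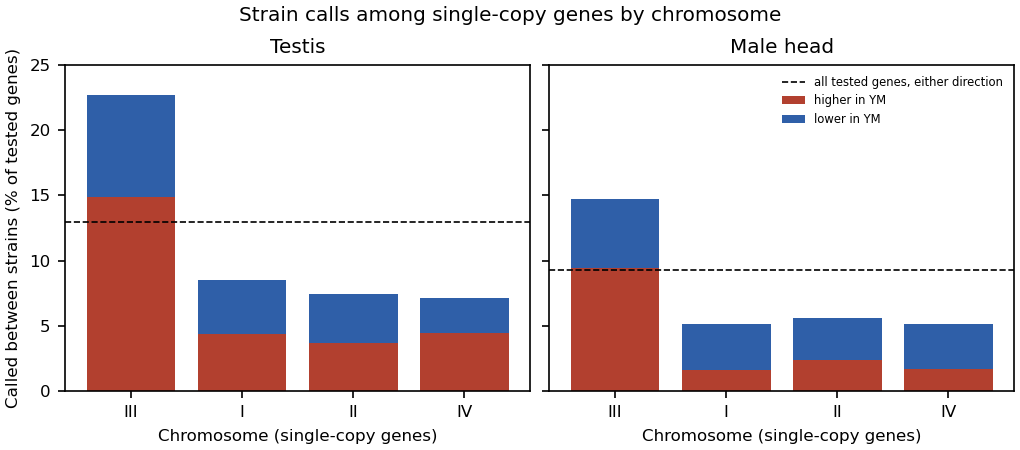
Share of tested single-copy genes called between YM and IIIM males (y axis, %) in testis and male head, by chromosome (x axis), split into genes higher (red) and lower (blue) in YM. The dashed line is the share over all tested genes of any kind, 13.0% in testis and 9.25% in male heads; the bar of chromosome III reaches 22.7% and 14.8%, and no other bar reaches the line.

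Among the called members, the largest rises in YM testes belonged to a pair of genes on scaffold NW_004765367. LOC101897757 (FBgn0052544) stood at 4.51 FPKM in IIIM and 53.6 FPKM in YM testes, an 11.9-fold difference, and lies at positions 157104 to 158441. LOC101895910 (FBgn0030040), at positions 112049 to 121441 of the same scaffold, stood at 14.2 and 164 FPKM. Neither gene was called in male heads, where LOC101897757 stood at 66.9 FPKM in IIIM and 60.0 FPKM in YM males. LOC101898329 (FBgn0029719) was close to 0 outside the testis and rose there from 1.17 to 6.63 FPKM. LOC101900485 (FBgn0030928) rose 4.15-fold, from 4.00 to 16.6 FPKM, and LOC101889649 (FBgn0029771) 5.14-fold, from 1.08 to 5.53 FPKM. The gene nAChRbeta3 (LOC101893593), a subunit of the nicotinic acetylcholine receptor that carries fast signals between neurons, rose from 68.7 to 122 FPKM, and its locus is shared with another gene, so the division of reads there is uncertain.

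The largest called fall was almost complete and was called in testes alone. LOC101890926 (FBgn0262738), on scaffold NW_004764514 at positions 737075 to 805228, stood at 16.9 FPKM in IIIM and 0.255 FPKM in YM testes, a 66.1-fold difference. Its q was 0.00107 in the authors' deposited table, the lowest value for testes, which 92 members share. In the other tissues the same gene was present in both strains, at 27.3 and 36.3 FPKM in IIIM and YM heads, 12.2 and 14.5 FPKM in CS and CSaY female heads, and 29.6 and 29.8 FPKM in CS and CSaY ovaries. LOC101897009 (FBgn0010329) fell from 18.9 to 2.99 FPKM, LOC101890542 (FBgn0052529) from 8.88 to 1.41 FPKM, and LOC101894707 (FBgn0030077) from 14.2 to 2.52 FPKM. Each of these 3 genes was at most 2 FPKM in every head and ovary group. LOC101889053 (FBgn0083940) fell 5.28-fold in testes, from 37.2 to 7.05 FPKM, and was found in ovaries at 41.6 FPKM in CS and 38.9 FPKM in CSaY. The other members with a symbol did not pass the test in testes. These were armadillo (LOC101899911), the beta-catenin of cell adhesion and Wnt signalling, at 47.6 FPKM in IIIM and 65.4 FPKM in YM males, and THY (LOC101896981), at 1263 and 1837 FPKM. Their q was 0.0804 and 0.0513 in the authors' deposited table.

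Members were called in testes whatever tissue they were most abundant in. The share was 28.6% among members whose level peaked in testis, 17.9% among those that peaked in ovary, 23.4% for male heads and 24.2% for female heads. The same shares among the reference genes were 10.5%, 3.66%, 8.59% and 16.8%. Of the 76 called members that peaked in ovary 51 were higher and 25 lower in YM testes, beside 29 higher and 30 lower among the reference genes that peaked there.

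In male heads 133 of the 901 tested members differed between the strains (14.8%), beside 9.25% of all 9441 tested genes and 5.32% of the reference genes (182 of 3421). The majority direction was opposite to that of all tested genes. Of the 133 members 85 were higher in YM heads (9.43% of those tested, beside 3.39% of all tested genes) and 48 were lower (5.33%, beside 5.86%), whereas 66 of the called reference genes were higher and 116 lower. This majority rests on small changes, since at 2-fold or more 12 members were higher and 19 lower. Together these were 3.44% of the tested members, beside 3.25% of all tested genes and 1.26% of the reference genes. The median fold was 1.61 for the members that were higher and 1.87 for those that were lower. The median log2 change of FPKM + 1 over all tested members was 0.089, and over the reference genes it was -0.005.

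The share called in heads was 13.1% among members that peaked in testis, 10.7% for ovary, 23.3% for male heads and 17.1% for female heads. Among the reference genes these shares were 2.86%, 2.16%, 9.04% and 19.4%. For genes that peaked in female heads the share of members was thus not above that of the reference genes. The direction in heads differed with the tissue in which a gene was most abundant. Of the 43 called members that peaked in ovary 39 were higher in YM heads, beside 24 of 33 reference genes. Of the 48 that peaked in male heads 25 were higher and 23 lower, beside 31 and 45 reference genes. Of the 13 that peaked in female heads 12 were lower, beside 45 of 48 reference genes. The majorities among genes of ovary and of female heads thus had the same direction on the other chromosomes. The tissue of the peak was taken from means over both strains, which include the IIIM and YM heads compared here. Class and direction are therefore not independent, and the same holds for the classes in testes above.

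Among the called members, the largest fall in heads belonged to LOC101887605 (FBgn0000927), which stood at 9.80 FPKM in IIIM and 0.214 FPKM in YM heads, a 45.7-fold difference. The level in IIIM heads stood apart from those in female heads (both under 1 FPKM), while both ovary libraries held 138 and 123 FPKM. LOC101887507 (FBgn0025463) fell from 147 to 34.0 FPKM, and the female heads, at 27.9 and 26.3 FPKM, lay near the YM value. LOC101899078 (FBgn0052732) fell from 24.7 to 5.04 FPKM, beside 3.65 and 5.31 FPKM in female heads, and its locus is shared with another gene. For these 3 genes the IIIM heads stood above every other head group. LOC101897576 (FBgn0040349), picked after its values were seen, stood at 29.0 FPKM in IIIM and 0.893 FPKM in YM heads but did not pass the test, and its locus is shared with another gene. LOC101889651 (FBgn0085360), at a shared locus, had another pattern. It fell from 376 to 128 FPKM in males but stood at 160 FPKM in CS and 478 FPKM in CSaY female heads. The difference between these single female libraries was not called.

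Among the rises, LOC101889488 (FBgn0030394) stood at 1.99 FPKM in IIIM and 8.91 FPKM in YM heads, with both female head libraries under 1 FPKM. LOC101898830 (FBgn0031110) rose from 9.74 to 29.2 FPKM in males and stood at 7.37 and 2.21 FPKM in CS and CSaY female heads. LOC101893940 (FBgn0030655) rose 2.61-fold, from 3.65 to 9.52 FPKM, LOC101891859 (FBgn0030874) 2.28-fold, from 10.3 to 23.4 FPKM, and LOC101899612 (FBgn0023521) 2.18-fold, from 20.2 to 44.0 FPKM. In testes these last 3 genes were not called.

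Members that differed in both male tissues mostly moved the same way. Among the 837 members tested in both, 43 were called in both (5.14%, beside 2.12% of all 8314 genes tested in both and 0.750% of the reference genes). They made up 23.8% of the testis calls and 35.2% of the head calls among these members. For the reference genes the shares were 11.1% and 15.7%. Such shares depend on how many genes were called in each tissue. In testes and heads these were 181 and 122 of the 837 members, beside 217 and 153 of the 3201 reference genes. Whether the overlap exceeds what these numbers give was not tested. Of the 43 genes 36 moved in the same direction (4.30% of those tested in both, beside 1.54% of all genes), 22 of them higher (beside 0.674% of all genes tested in both) and 14 lower (beside 0.866%) in YM males. The reference genes gave 24 such genes, 13 in the same direction and 11 in opposite ones. Testis and head comparisons used different libraries of the same strains. Across the 837 members Spearman's rho between the log2 changes of testis and head was 0.21, and across the 3201 reference genes it was -0.03; these describe genes, which are not independent replicates.

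**Figure D2:**
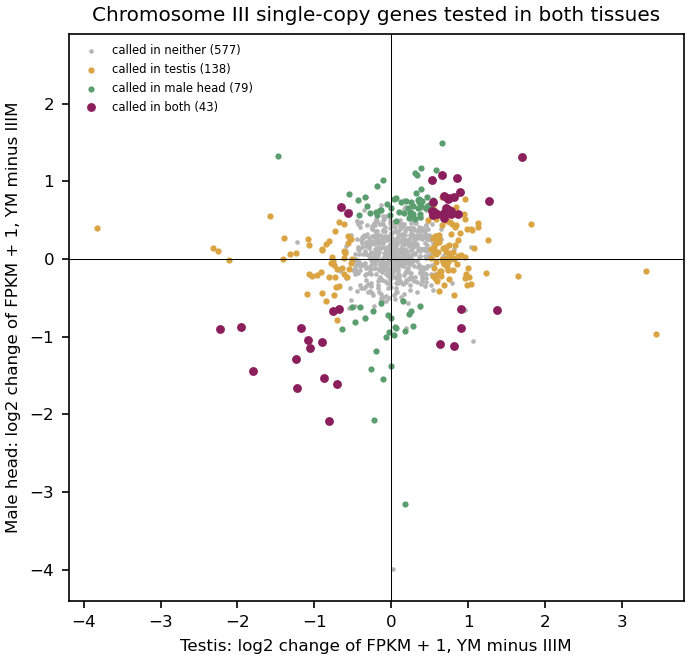
Log2 change of FPKM + 1 between YM and IIIM males in testis (x axis) and in male head (y axis), for the 837 members tested in both tissues; colours give where a member was called. Of the 43 members called in both, 36 lie in the upper right or lower left part and 7 in the others.

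The members that moved most in both tissues were mainly lower in YM males. LOC101901172 (FBgn0000152) fell from 18.5 to 4.61 FPKM in testes and from 10.6 to 3.27 FPKM in heads. LOC101888050 (FBgn0029925) fell from 33.3 to 13.5 FPKM in testes and from 39.0 to 15.3 FPKM in heads, nearly the same fold in each (2.47 and 2.54). LOC101889135 (FBgn0031097) fell 2.89-fold in testes and 4.34-fold in heads. Between the females of these strains none of the 3 genes was called, LOC101889135 being untested in ovaries. LOC101888050 stood at 17.2 FPKM in CS and 21.7 FPKM in CSaY ovaries and at 13.5 and 11.5 FPKM in female heads. LOC101894500 (FBgn0028746), an abundant transcript in testis, fell from 695 to 374 FPKM there and from 107 to 50.8 FPKM in heads. LOC101889810 (FBgn0030041), a gene of the head, fell from 589 to 265 FPKM in male heads and from 9.09 to 3.83 FPKM in testes. It stood at 1376 FPKM in the CSaY and 437 FPKM in the CS female head library, a difference that was not called. The largest rise shared by both tissues was that of LOC101898301 (FBgn0014024), from 25.2 to 84.2 FPKM in testes and from 5.96 to 16.2 FPKM in heads.

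**Figure D3:**
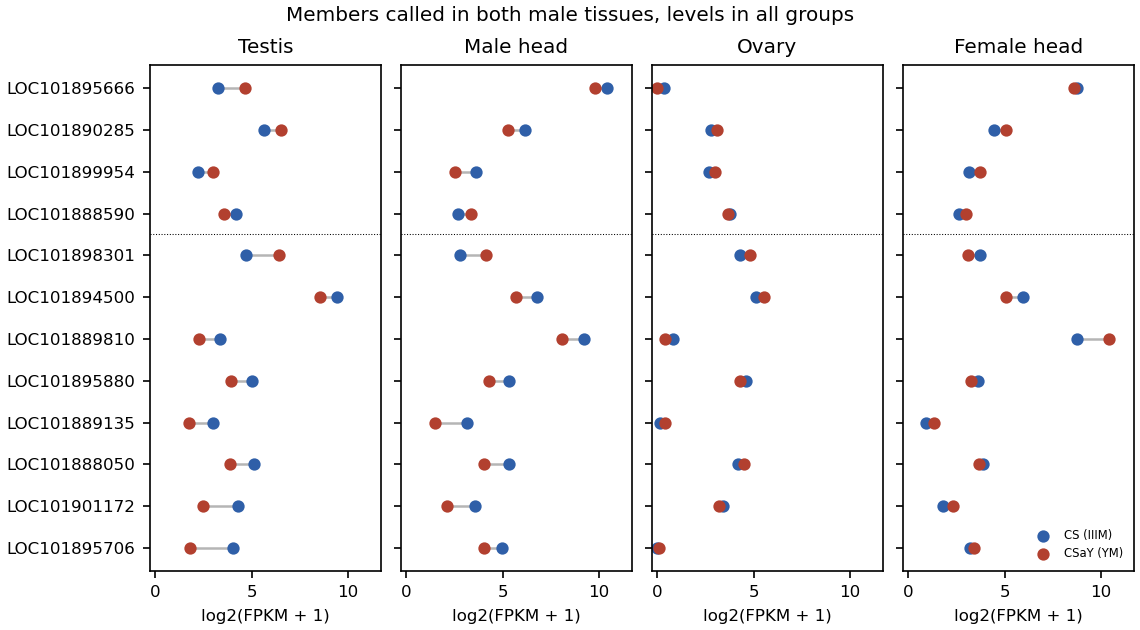
Levels as log2(FPKM + 1) (x axis) in the 8 groups for 12 members called in both male tissues (rows); blue is strain CS, red is strain CSaY, and each point is 1 group value. Below the dotted line are the 8 members with the largest shared change, of which LOC101898301 alone rose; above it are 4 members that moved in opposite directions, such as LOC101895666 (FBgn0001145).

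Along the scaffolds, neighbouring members were more often both called than neighbouring reference genes. Tested members that are neighbours on a scaffold form 647 pairs for the testis comparison, and in 48 of them both genes were called (7.42%, beside 0.655% of the pairs of reference genes). In 37 of these 48 pairs both genes moved the same way (77.1%), beside 9 of 17 pairs of reference genes. In male heads both genes were called in 20 of 598 pairs (3.34%, beside 0.377%), and 19 of the 20 moved the same way (95.0%), beside 6 of 9 pairs of reference genes. The share of such pairs also rises with the share of genes called. In testes 22.7% of tested members and 7.61% of reference genes were called, and in heads 14.8% and 5.32%. Whether calls lay closer together than these shares give was not tested. Genes at an identical locus were not paired. Without any gene whose locus is shared with another, a choice made after the data were seen, 32 of 44 pairs in testes and 17 of 19 in heads moved the same way.

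Of the 262 scaffolds with a tested member, 129 held at least 1 call in testes, and 91 of 266 held one in male heads. Among scaffolds of reference genes 207 of 887 held a call in testes and 155 of 873 in male heads. The order of the scaffolds along the chromosome was not used. On the 18 scaffolds with at least 10 tested members the share called in testes ran from 0 to 50.0%, with a median of 15.5%, and 17 of them held a call. For the reference genes 53 of 92 such scaffolds held a call, with a highest share of 30.0%. In male heads 8 of the 16 scaffolds with at least 10 tested members held no call, the median share was 2.33% and the highest 53.8%. Of the reference genes 30 of 78 such scaffolds held a call, with a highest share of 20.0%. How many scaffolds hold a call also depends on the share of genes called and on the genes tested per scaffold. Whether the counts exceed what these give was not tested. Of the 17 scaffolds with at least 3 calls in testes, 7 had calls in 1 direction throughout, 5 of them higher and 2 lower in YM males, while none of the 16 such scaffolds of reference genes did.

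Single scaffolds stood out in opposite directions. On NW_004764616 (22 members, positions 87769 to 1479407) 9 of 20 tested members were called in testes, 8 of them higher in YM males, and 8 of 16 in heads, all higher. The testis calls named here lay in separate stretches of the scaffold. LOC101898301, LOC101888059 (FBgn0035458), LOC101898991 (FBgn0030028) and LOC101899787 (FBgn0030030) lie between positions 356445 and 493100. In testes LOC101888059 rose from 26.0 to 89.8 FPKM, LOC101898991 from 149 to 435 FPKM and LOC101899787 from 21.5 to 53.4 FPKM, and the last of these also rose in heads, from 52.2 to 88.0 FPKM. The loci of LOC101898991 and LOC101899787 are shared with other genes, so their levels are uncertain. Farther along, LOC101887331 (FBgn0023512), at position 1320757, rose from 17.2 to 26.4 FPKM in testes and was also called higher in heads. LOC101889294 (FBgn0034869) rose from 58.3 to 121 FPKM and LOC101889629 (FBgn0029839) from 20.5 to 39.0 FPKM in testes. Between these last 2 genes LOC101887498 (FBgn0029837) fell 2.80-fold, from 4.46 to 1.59 FPKM.

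On NW_004764570 (16 members, positions 7596 to 496750) the change ran the other way in both tissues. There 7 of 16 tested members were called in testes and 7 of 13 in heads, all of them lower in YM males, and 14 and 11 members lay below 0, called or not. LOC101895706 (FBgn0002917) fell from 15.4 to 2.52 FPKM in testes and from 29.8 to 15.4 FPKM in heads. LOC101894478 (FBgn0030739) fell from 15.6 to 3.28 FPKM in testes and from 4.38 to 1.94 FPKM in heads. LOC101895880 (FBgn0030559) fell from 31.0 to 14.1 FPKM in testes and from 38.7 to 18.3 FPKM in heads. The median log2 change of the tested members of this scaffold was -0.50 in testes and -0.54 in male heads, and -0.10 in ovaries and -0.19 in female heads. On NW_004764616 the medians were 0.54 in testes, 0.55 in male heads, 0.29 in ovaries and 0.05 in female heads.

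On NW_004764950 6 of 12 tested members were called in testes and all 6 were higher, while 2 of 12 were called in heads. NW_004764514, which held the most members (49), had 8 of 48 called in testes, 6 higher and 2 lower, and 2 of 43 in heads. Examples of its called genes in testes are LOC101895524 (FBgn0029854), which rose from 59.8 to 124 FPKM, and LOC101898931 (FBgn0002707), which fell from 20.2 to 6.98 FPKM, beside LOC101890926 described above. The scaffold NW_004764740 had 4 of 11 tested members called in testes, all lower, and 2 of 11 in heads, 1 higher and 1 lower. These scaffolds were picked for their counts, so their counts are a description.

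**Figure D4:**
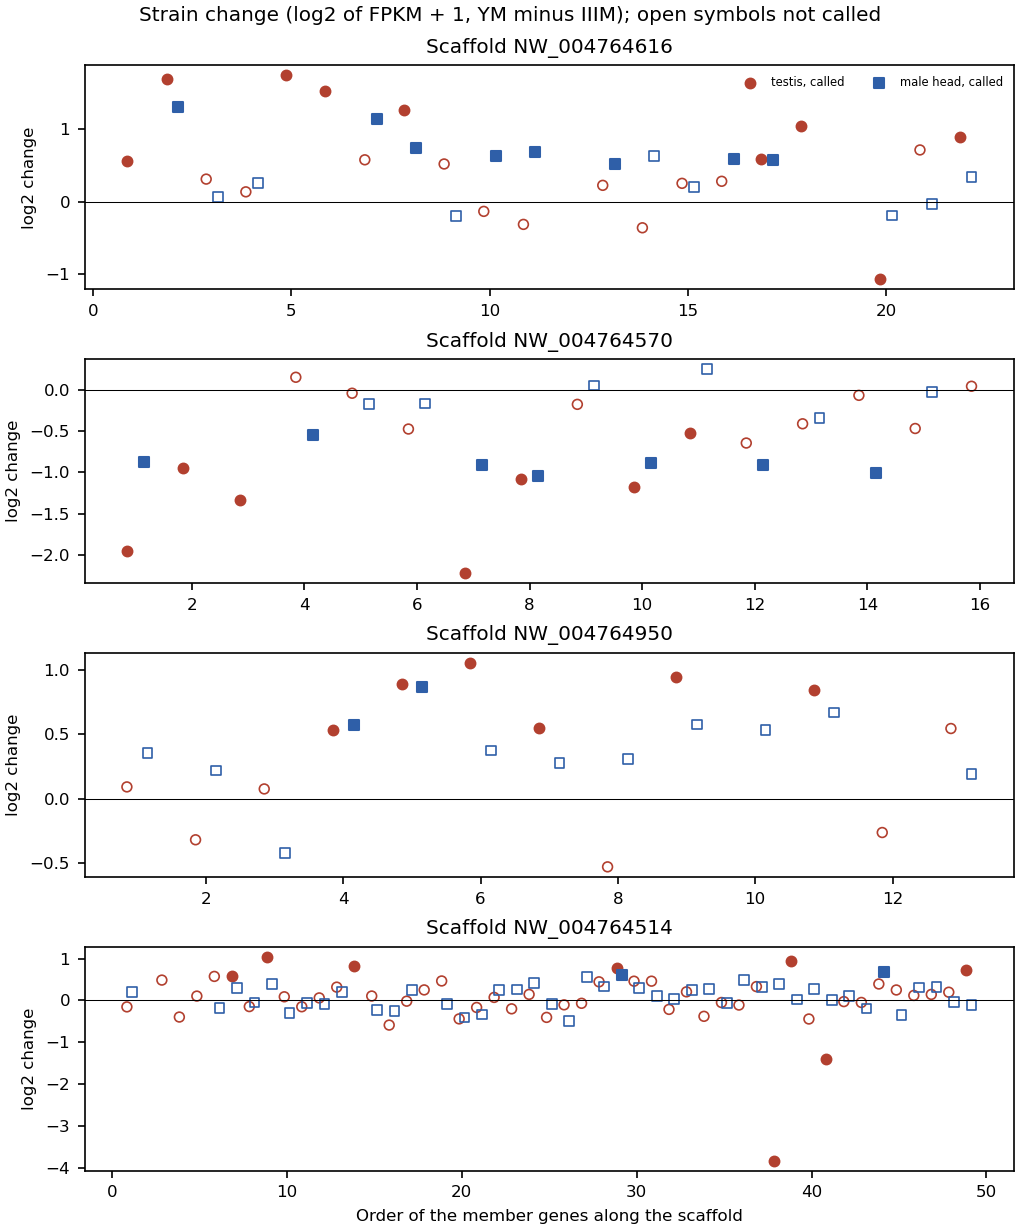
Log2 change of FPKM + 1 between YM and IIIM males (y axis) of the members of 4 scaffolds in their order along the scaffold (x axis), for testis (red circles) and male head (blue squares); filled symbols are called. Calls lie above 0 on NW_004764616 with 1 exception in testis, below 0 on NW_004764570, above 0 on NW_004764950, and on both sides of 0 on NW_004764514.

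Members were also grouped by the arm of their fly ortholog. Of the 124 tested members with an ortholog on another arm 24 were called in testes (19.4%), beside 192 of 824 members with one on the corresponding arm (23.3%), 13.0% of all tested genes, and 7.65% of the reference genes whose ortholog sits on the matching arm. In male heads 7 of 108 were called (6.48%), beside 126 of 790 (15.9%), and this share lay below the 9.25% of all tested genes and near the 5.44% of such reference genes. In the opposite case, single-copy genes on chromosomes I, II or IV whose ortholog sits on the arm of chromosome III, 5 of 36 were called in testes (13.9%) and 0 of 29 in heads. Whether these shares differ was not tested.

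Few members were called between the females of the strains. Between the single female head libraries 3 of 888 tested members were called (0.338%, beside 0.772% of all tested genes), all 3 lower in CSaY (beside 0.455%), and between the single ovary libraries 2 of 819 (0.244%, beside 0.358%), both higher in CSaY (beside 0.306%). These comparisons set 1 library against 1, so they compare those libraries and not the strains. Without the calls, the sizes can be read. Of the members called in testes 161 were tested in ovaries, and the CSaY ovary lay on the same side of the CS ovary as in testes in 71 of them (44.1%, beside 51.4% of the reference genes). The members that were higher in YM testes had a median log2 change of 0.72 there and of -0.03 in ovaries, and those that were lower had -0.81 and 0.01. Of the members called in male heads 128 were tested in female heads, and 48 lay on the same side (37.5%, beside 32.2% of the reference genes). Those higher in YM heads had a median log2 change of 0.69 in male and -0.15 in female heads, and those lower had -0.91 and 0.10. The opposite sides of male and female heads were thus shared with the reference genes.

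**Figure D5:**
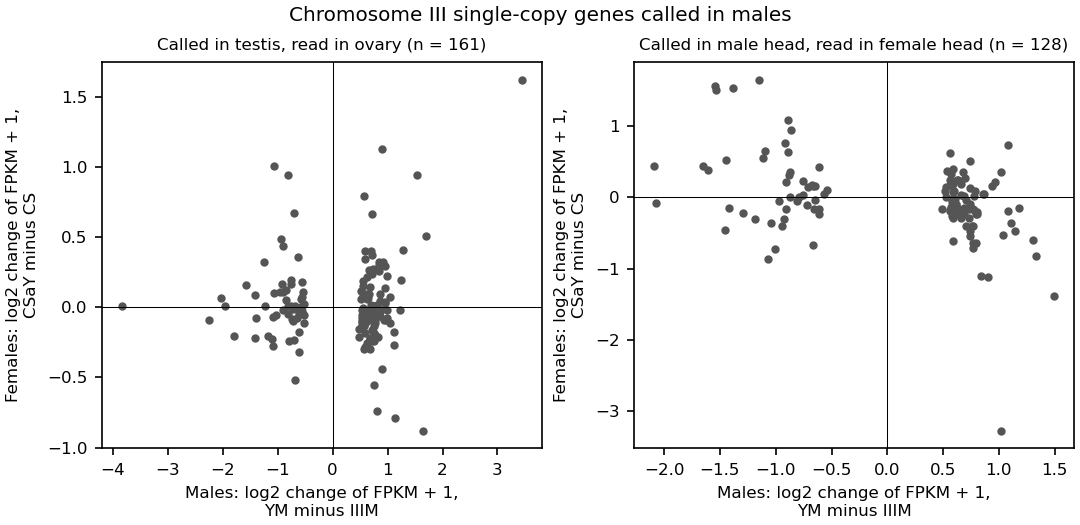
Log2 change of FPKM + 1 between the strains in males (x axis, YM minus IIIM) and in females (y axis, CSaY minus CS) for members called in testis and read in ovary (161 members) and for members called in male head and read in female head (128 members). Each female value compares 1 library with 1; the same side was seen for 71 and 48 members.

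Sex differences in heads were mostly toward females. Of the 899 tested members 114 were called between male and female heads (12.7%, beside 13.3% of all 9679 tested genes and 10.2% of the reference genes). Of these 98 were higher in females (10.9% of those tested, beside 11.2% of all tested genes and 8.97% of the reference genes). Another 16 were higher in males (1.78%, beside 2.12% and 1.25%). The members thus stood near all tested genes in both directions, and above the reference genes. The median log2 change of FPKM + 1, male minus female, was -0.152 over all tested members and -0.072 over the reference genes. Whether these differ was not tested. The female libraries were both above the highest male group in 78 of the called members (68.4%, beside 66.4% of all called genes) and both below the lowest in 14 (12.3%, beside 14.9%). LOC101891419 (FBgn0263748), whose locus is shared with another gene, stood at 4.09 and 4.05 FPKM in IIIM and YM heads and at 2523 and 4502 FPKM in CS and CSaY female heads. LOC101898930 (FBgn0005670) stood at 8.46 and 6.99 FPKM in male and 54.4 and 160 FPKM in female heads. LOC101900177 (FBgn0030597) stood at 1.23 and 0.698 FPKM in male and 15.7 and 21.2 FPKM in female heads. In all 3 genes the groups of the sexes did not overlap. LOC101897895 (FBgn0029799) was higher in males, at 50.0 and 68.5 FPKM against 15.1 and 17.1 FPKM in females, and so was LOC101898110 (FBgn0030317), at a shared locus, at 380 and 336 FPKM against 79.7 and 123 FPKM. Neither of these was called between the strains. Other members called higher in male heads were also called between the strains there, and both comparisons use the male head libraries. Of those named here LOC101898830 was higher in YM heads. LOC101887605, LOC101887507, LOC101899078, LOC101888050, LOC101895666, LOC101895706 and LOC101895880 were lower in YM heads. For LOC101887605 the YM heads (0.214 FPKM) lay below the CS female heads (0.292 FPKM), so its call toward males rests on the IIIM heads.

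Testis and ovary differed in most members. Of the 967 tested members 720 were called (74.5%, beside 73.6% of all 10586 tested genes and 75.6% of the reference genes), a share near the background. Of them 482 were higher in ovary (49.8% of those tested, beside 41.3% of all tested genes and 49.1% of the reference genes) and 238 in testis (24.6%, beside 32.4% and 26.5%). The ovary majority was thus shared with the single-copy genes of the other chromosomes. Armadillo stood at 298 and 330 FPKM in CS and CSaY ovaries and at 47.6 and 65.4 FPKM in testes. LOC101897389 (FBgn0029733) stood at 546 and 563 FPKM in ovaries and at 2.58 and 3.26 FPKM in testes. On the testis side LOC101896325 (FBgn0038708) reached 5945 FPKM in IIIM and 4514 FPKM in YM testes, beside 9.47 and 12.8 FPKM in ovaries. LOC101891631 (FBgn0040371) stood at 3147 and 3089 FPKM in testes and 2.69 and 9.53 FPKM in ovaries, and neither gene was called between the strains. LOC101888152 (FBgn0029877) rose between the strains from 1401 to 2094 FPKM in testes and was at most 4.50 FPKM in ovaries. LOC101889987 (FBgn0030078) was listed at 0 in every group outside the testis and rose from 190 to 297 FPKM there (q = 0.0309 in the authors' deposited table). A missing call between the gonads is no sign of equal levels. Of the 247 members tested and not called 22 were at least 8-fold higher in testis in FPKM + 1, beside 89 of 903 reference genes. Among these members was LOC101898991, at a shared locus, with 309 FPKM in testis and 1.06 FPKM in ovary in the authors' pooled values.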

How the data were processed

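The FPKM values are group values that the authors made before deposit, per the file headers, and each female strain column holds 1 library. Each q value (p-value adjusted by the authors) is used as in the authors' deposited table. For the male groups the p-values measure the spread between libraries, which may be technical. The female strain comparisons have no spread within a group. In the sex comparisons, which pool the strains, the female side has 1 library from each strain. Differences between strains and between replicates cannot be told apart there. Cufflinks 2.2.1, Bowtie2 2.1.0.0, TopHat2 2.0.8b and CASAVA 1.8.2 are listed per the submitters' processing notes, without their roles. Genome build and adjustment: not given in the sources used here. Positions are those of the deposited table. The other FPKM columns, which the authors pooled over strains (deposited values with no single group), gave the direction of the sex comparisons.

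Changes are differences of log2(FPKM + 1), and folds are ratios of FPKM. No value for single male libraries was used, so depth, intervals and replicate errors are not given. No test was added to the authors' q: genes of a scaffold are not independent, so chromosome III is described by counts beside the reference genes and all tested genes. The members and lists were chosen with earlier results of these data known.

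Named genes are, among called members that reach 5 FPKM in the higher group, those with the largest changes in each comparison and on the 2 scaffolds with the most testis calls, those called in both male tissues, and the 3 with a symbol. The summaries of NW_004764570, NW_004764950 and NW_004764740 were chosen after their values were seen. Gene IDs were matched to assembly GCF_030504385.1 for names only (1081 of 1119 members, 96.6%). Lists by function were not applied, since that table gives no descriptions. Of the members 146 share a locus with another gene, and 1 gene is not reported here. Counting was tested on simulated data. Python 3.11.15, numpy 2.4.6 and pandas 2.3.3 were used. Alternatives tried are in the closing section.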

Additional observations from a re-analysis of the deposited data

Results flagged for a closer look

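Of the members called in both male tissues, 4 named genes moved in opposite directions, and the difference between the tissues was not tested. LOC101895666 (FBgn0001145) rose in YM testes (8.61 to 23.9 FPKM) and fell in YM heads (1379 to 873 FPKM), a gap of 2.04 between the log2 changes of testis and head. LOC101899954 (FBgn0030799) rose from 3.54 to 7.00 FPKM in testes and fell from 11.4 to 4.73 FPKM in heads, a gap of 1.94. LOC101890285 (FBgn0261446) rose from 48.0 to 91.1 FPKM in testes and fell from 71.2 to 38.0 FPKM in heads, a gap of 1.80. LOC101888590 (FBgn0026313) fell from 17.3 to 10.6 FPKM in testes and rose from 5.46 to 9.31 FPKM in heads, a gap of -1.33.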

How the results depend on the processing

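At q below 0.01 the calls fell to 133 members in testes (76 higher, 57 lower), 76 in male heads (39 and 37), 22 in both tissues and 0 in ovaries, where the smallest q in the authors' deposited table is 0.0163. At 2-fold or more there were 48 in testes, 31 in male heads and 6 in both, all 6 in the same direction. In both tissues these were 2.63% of the tested members at q below 0.01, beside 0.187% of the reference genes, and 0.717% at 2-fold, beside 0.0312%. Only 1 reference gene remained in both at 2-fold, so its direction gives no comparison. With a mean of at least 10 FPKM there were 84 in male heads (15.0%, beside 5.31% of the reference genes). In both there were 23 (5.08%, beside 0.794%), and in ovaries 1 (0.148%, beside 0.274%). The median log2 change in male heads at that level was 0.039 (reference genes -0.060). Fewer genes enter these settings. The shares in testes and male heads stayed above those of the reference genes in each of these, at 14.0% against 3.74% and 8.44% against 2.63% for q below 0.01. The other 44 of 55 values lay within 1.5 times the main count or inside the interval of the median given by the ranks of the members' changes. That interval treats the members as independent, which genes of a scaffold are not, and it holds no spread between libraries. For the medians this is therefore a description of the genes. Without NW_004764616 and NW_004764570, an alternative chosen after the data were seen, as was that of loci shared with no other gene, 200 members were called in testes, 118 in heads and 36 in both. These were 21.9%, 13.5% and 4.46% of the tested members, beside 7.61%, 5.32% and 0.750% of the reference genes. No paired analysis was possible because the deposited table holds 1 value per male group, and leaving out a replicate was not run for the same reason. Depth is unknown.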

Other observations

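A run of neighbouring members was present in 1 of the 2 ovary libraries and was chosen after its values were seen. On scaffold NW_004764969 LOC101890831 (FBgn0000360, positions 255511 to 256513) had 0.688 FPKM in CS and 3933 FPKM in CSaY ovaries, and LOC101891006 (FBgn0000359, positions 261087 to 261967) at 0.407 and 2592 FPKM. The next members along the scaffold were LOC101891179 (FBgn0014465), listed at 0 in CS and at 7.62 FPKM in CSaY, and LOC101891348 (FBgn0014464), at 0.119 and 188 FPKM. LOC101889810, the member after these, stood at 0.782 FPKM in CS and 0.338 FPKM in CSaY ovaries. In the comparison of ovary libraries LOC101891179 alone of the 4 was called, and all 4 were called higher in ovary than in testis, a call that rests on the CSaY library. The other member called between the ovary libraries, LOC101900378 (FBgn0031111), was listed at 0 in CS and stood at 182 FPKM in CSaY.

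The 3 members called between the female head libraries were all lower in CSaY. LOC101893749 (FBgn0085443) stood at 105 FPKM in CS and 9.87 FPKM in CSaY female heads, and its locus is shared with another gene. In male heads it rose, from 7.42 FPKM in IIIM to 16.0 FPKM in YM males. LOC101897191 (FBgn0030271) stood at 1079 and 227 FPKM, and LOC101899359 (FBgn0029831) at 581 and 120 FPKM. In male heads LOC101899359 stood at 65.9 and 73.4 FPKM and was not called.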
